A study of Mus musculus with 3 samples.

Results

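The 10 genes studied here belong to the semaphorin and plexin families, and their transcripts were measured in immortalized mouse lymphatic endothelial cells (imLECs). They are the ligands Sema3a, Sema3c, Sema3d, Sema3f, Sema3g and Sema6a and the receptors Plxna1, Plxna2, Plxnb2 and Plxnd1. All 22 probe sets that the platform annotation gives to these 10 genes were read, out of 18194 genes named on the array. The 3 samples form a single group of cultures, taken at passages 13, 14 and 18. Healthy ImmortoMice (strain H-2Kb-tsA58) were the source: the cells were sorted from skin by FACS, and the transgene, driven by the H-2Kb promoter that interferon induces, encodes a temperature-sensitive large T antigen. The cells were grown at 33 °C with interferon-gamma, then kept for 3 days at 37 °C without it so that the T antigen could be degraded. All 3 cultures therefore share the transgene, its withdrawal and the amplification of their RNA, and no primary or unshifted cells are part of the comparison. The labels do not say whether the cultures descend from 1 isolation or several, so the spread among them may be technical or biological.

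Semaphorins are guidance ligands, first known from growing axons, that also steer endothelial cells. The secreted class 3 members mostly act through a pair of receptors: a neuropilin binds the ligand and a plexin of the A group or Plxnd1 carries the signal, usually towards loss of adhesion and withdrawal of the cell edge. Sema3e is an exception that binds Plxnd1 directly. Transmembrane Sema6a binds plexins of the A group without a neuropilin, and Plxnb2 is a receptor for class 4 semaphorins. In lymphatic vessels, Sema3a with Nrp1 and Plxna1 is known for its part in the formation of valves.

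A gene was called detected where its brightest probe set lay above a floor on all 3 arrays. The floor, set by 39 genes that belong to other tissues, was their 95th percentile on each array, 51.8, 53.4 and 54.2 intensity units at passages 13, 14 and 18. Array medians were between 25.7 and 26.3. The cells carried endothelial markers, with 14 of 15 pan-endothelial genes detected and the remaining one, Cldn5, under the floor at passage 18 alone. Of the lymphatic list 7 of 11 measured genes were detected, among them Pdpn, Lyve1 and Flt4, but Prox1, the factor that specifies lymphatic identity, lay above the floor at passage 13 alone. No leukocyte gene of 7 was detected, though Csf1r lay above the floor at passage 13 alone and Lyz2 at passage 14 alone. The Gapdh 3'/5' signal ratio, a sign of RNA integrity and of how far amplification reached, was 8.59, 7.10 and 19.4 at the 3 passages, highest at passage 18. The same ratio for Actb differed less, with 1.18, 1.20 and 1.42. All values below are signal intensities of the deposited table or their log2, with mean ± SD over the 3 cultures (n = 3). A level is compared only within a probe set, since brightness differs between probe sets for reasons other than transcript number.

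Of the 10 members, 5 were detected: Sema3a, Sema3c, Plxna1, Plxna2 and Plxnb2. Of all genes 48.7% were detected, a share near that of the members. By their brightest probe sets, Plxnd1 and Sema3f lay above the floor at passages 13 and 14 and under it at passage 18, while Sema3d, Sema3g and Sema6a never reached it. A lower floor, the 90th percentile, gave 7 detected members, Plxnd1 and Sema3f being the additions, beside 55.7% of all genes. The 99th percentile gave 3 members, beside 35.5% of all genes. That highest floor, at 124, 162 and 102 units, removed Sema3c and Plxnb2.

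**Figure D1:**
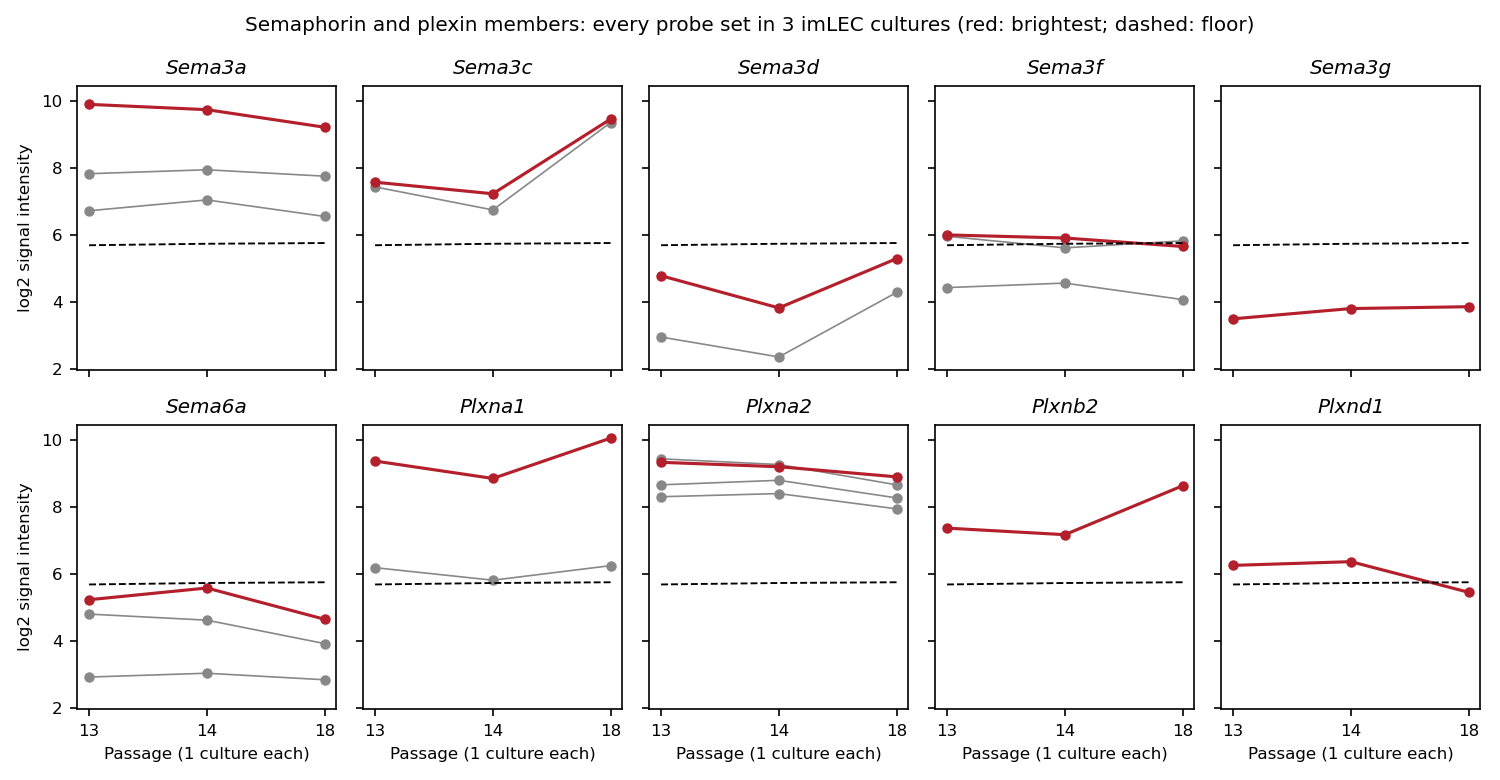
Log2 signal intensity of every probe set of the 10 members at passages 13, 14 and 18 (1 culture each, evenly spaced), with the brightest probe set of a gene in red, the others in grey and the floor dashed. Both Sema3c probe sets and the single Plxnb2 probe set are highest at passage 18, whereas all 4 Plxna2 probe sets are lowest there.

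Among the ligands, Sema3c differed most between the cultures. This secreted ligand of neuropilin and plexin complexes read 191 intensity units at passage 13, 150 at passage 14 and 703 at passage 18. The passage 18 culture stood apart from the other two, 3.69-fold above passage 13 and 4.69-fold above passage 14. The mean log2 level was 8.09 ± 1.20 (SD, n = 3), a spread larger than that of 99.1% of detected genes or equal to it. The second Sema3c probe set had the same order, with 173, 108 and 655 units, and was 3.78-fold higher at passage 18 than at 13.

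Sema3a, the founding class 3 ligand, was lowest, not highest, at passage 18. It read 952, 854 and 594 units at passages 13, 14 and 18, a log2 level of 9.62 ± 0.36, and was 1.60-fold lower at passage 18 than at 13. The passage 18 culture was the lowest on each of the 3 Sema3a probe sets, but the sizes disagreed. The other probe sets read 227, 247 and 216 units and 106, 132 and 94.0 units, which puts passage 18 only 1.05-fold and 1.13-fold under passage 13. Both had their highest value at passage 14, not at passage 13.

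The other ligands were close to the floor or under it. Sema3f, which acts mainly through Nrp2, read 64.1, 60.2 and 50.5 units, and its log2 level was 5.86 ± 0.18. Of its other probe sets, the one named as open to cross-hybridisation read 62.3, 49.1 and 56.7 units, above the floor at passages 13 and 18 and under it at 14, and the third stayed under the floor at 21.6, 23.7 and 16.9. Sema3d, a neighbour of Sema3a on chromosome 5 with no protein-coding gene between them in the RefSeq order, read 27.6, 14.2 and 39.3 units, and 7.78, 5.15 and 19.6 on its second probe set. Its values were lowest at passage 14 and highest at passage 18 on both probe sets, as were those of Sema3c, but all lay under the floor, so no fold is given. Sema3g, an arterial ligand of Nrp2, read 11.3, 14.0 and 14.6 units. Sema6a read 37.8, 48.2 and 25.2 units by its brightest probe set, with 28.1, 24.8 and 15.3 on the next and 7.65, 8.28 and 7.23 on the dimmest. Passage 18 was the lowest on all of them. Values under the floor set only an upper limit on these transcripts.

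Among the receptors, Plxnb2 differed most. This receptor of class 4 semaphorins, represented by a single probe set, read 166, 145 and 399 units, a log2 level of 7.73 ± 0.79. At passage 18 it exceeded passage 13 by 2.40-fold and passage 14 by 2.75-fold, and passages 13 and 14 were 1.14-fold apart. Plxna1, the partner of neuropilins in Sema3a signalling, read 664, 463 and 1066 units (9.43 ± 0.60). Its passage 18 level was 1.61-fold above that of passage 13 and 2.30-fold above that of passage 14. Its dimmer probe set, close to the floor, read 73.3, 56.6 and 76.5 units, the same order with a 1.04-fold difference between passages 18 and 13.

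Plxna2, a receptor of Sema6a and of neuropilin complexes, was the steadiest detected member by the brightest probe sets. Its brightest probe set read 647, 590 and 479 units (9.15 ± 0.22), which puts passage 18 1.35-fold under passage 13. With each gene at the median over its probe sets, Sema3a was steadier. There Sema3a differed by -0.07 (log2) between passages 18 and 13, and Plxna2 by -0.53. The other Plxna2 probe sets read 695, 618 and 406 units, 406, 446 and 310 units, and 318, 339 and 247 units. All 4 were lowest at passage 18, between 1.28-fold and 1.71-fold under passage 13. Plxnd1, the endothelial plexin that binds Sema3e, read 76.9, 83.0 and 44.1 units (6.03 ± 0.50). Its passage 18 value was under the floor, so that the culture was at least 1.47-fold below the mean of the other two.

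**Figure D2:**
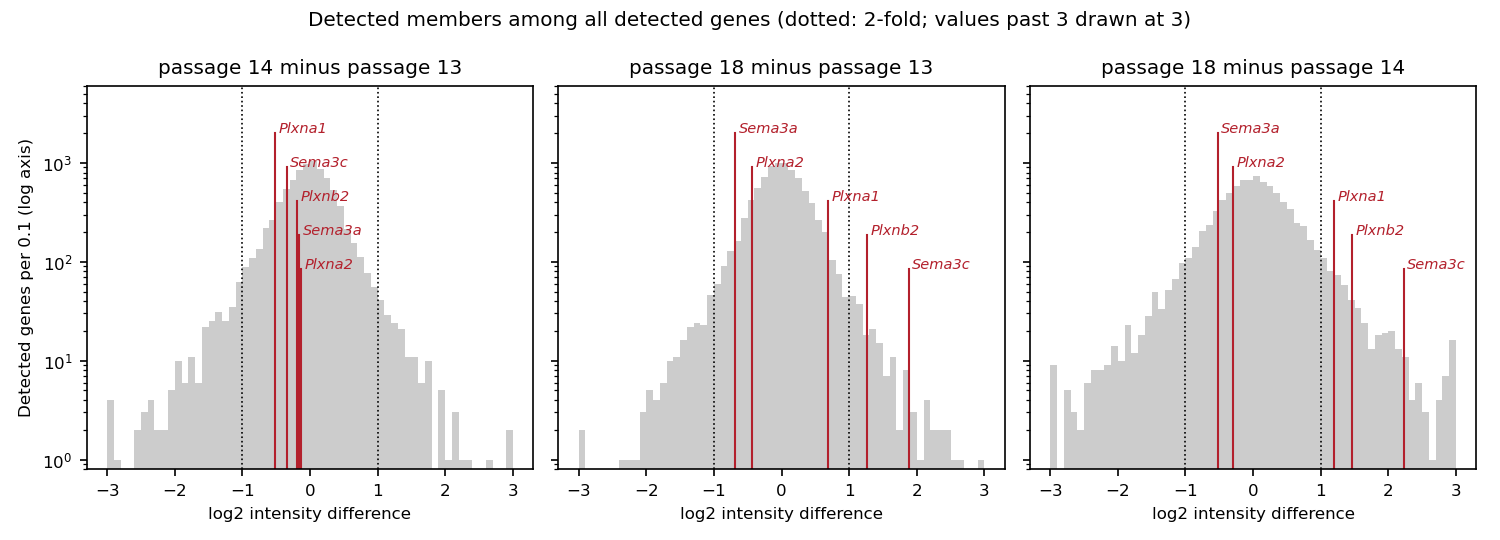
Histograms of the log2 intensity difference of all 8859 detected genes for each pair of cultures (log count axis, grey), with the 5 detected members as red lines whose height has no meaning. Sema3c and Plxnb2 lie beyond the dotted 2-fold line in both differences that involve passage 18, and no member lies beyond it between passages 14 and 13.

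Each passage is 1 culture, so differences between pairs were counted by size, with no test. Of the 5 detected members, 0 differed at least 2-fold between passages 14 and 13, where 4.79% of all detected genes did. Between passages 18 and 13, 2 did so, Sema3c and Plxnb2, both higher at 18, against 4.02% of detected genes. Between passages 18 and 14, 3 did so, again Sema3c and Plxnb2 and also Plxna1, against 11.4%. These comparisons share cultures and are not independent of each other. Counted over all 10 members the last number was 4, the addition being Sema3d from values under the floor. Requiring detection on all arrays leaves out genes that end under the floor, as Plxnd1 did.

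The passage number was also fitted as a trend over all 9456 genes whose mean lay above the mean floor, among them 7 members. None of the 7 was called by limma at an adjusted p under 0.05, and of all genes 0 were (0%). At an unadjusted p under 0.05 there were 2 of the 7 members, Sema3c and Plxnb2, and 328 of all genes tested (3.47%). The slope of Sema3c was 0.43 ± 0.10 log2 units per passage (SE; limma adjusted p = 0.888) and that of Plxnb2 0.28 ± 0.08 (adjusted p = 0.888). The slope of Plxna1 was 0.18 ± 0.09. The slopes of Sema3a and Plxna2 were -0.13 and -0.08, and no adjusted p was under 0.888. Plxnd1 and Sema3f entered the fit through their passage 13 and 14 values and were under the floor at 18, so their slopes are not read. Without the passage 18 culture the slopes of Sema3c, Plxna1 and Plxnb2 were -0.35, -0.52 and -0.20, so that these directions rest on passage 18, where the Gapdh ratio was 19.4 and the Actb ratio 1.42.

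Other markers differed with the passage 18 culture as well. Of the 7 detected fibroblast genes 5 read higher at passage 18 than at 13, where 4276 of all 8859 detected genes did. Each of the 5 was at least 2-fold higher, against 181 of all 8859. Thy1 and Fbln1 read lower. The 15 genes of the list summed to 4209, 2780 and 6738 units at the 3 passages, a sum that the brightest probe sets dominate. The order of these sums is that of Sema3c, Plxnb2 and Plxna1, but of the detected genes only Col1a1 and Col6a1 shared it. Col3a1, Mmp2 and Twist1 read higher at passage 14 than at 13, and Thy1 and Fbln1 were highest at passage 13. Col1a1 was detected at a log2 level of 8.28 ± 1.87, while Pdgfra, Dcn, Lum, Postn, Dpt and Fap were under the floor on all arrays. The 8 mural genes summed to 6195, 1095 and 7375 units, with Myh11, Cnn1, Des, Rgs5 and Cspg4 under the floor on all arrays. The 3 detected mural genes did not share a direction: from passage 13 to 18, Acta2 differed by 3.61-fold and Pdgfrb by 2.65-fold upwards, but Tagln by 2.58-fold downwards. All 14 detected pan-endothelial genes were lower at passage 18 than at 13, and the list summed to 21125, 20733 and 14373 units. Of the 7 detected lymphatic genes 3 were at least 2-fold lower at passage 18 than at 13, against 175 of all 8859 detected genes. These were Lyve1 (8.44-fold), Sox18 (2.55-fold) and Flt4 (2.22-fold), while 2, Nr2f2 and Foxc2, read higher. The lymphatic list summed to 12034, 10424 and 8085 units. All 15 cell cycle genes measured exceeded their passage 13 level at passage 14, and all but Mcm6 were lower at 18 than at 14, with sums of 14946, 21566 and 13088. The part of these differences in the values of the members was not tested. In such bulk samples, a change in the share of cells that make a transcript and a change in transcript per cell cannot be told apart.

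The sequences before the start sites of the members that differed most, and of 2 that read lower at passage 18, are shown for their composition. The RefSeq promoter table (GRCm38.p6) held windows for 7 of the 10 members. Printed are the 250 bases before a start site, 5′ to 3′ on the strand of the gene, with matches to the motifs searched in capitals. Sema3c lies at chr5:17574566-17574815 (plus strand), the start sites of Plxnb2 at chr15:89180789-89181038 (minus strand) and chr15:89173952-89174201 (minus strand), Sema3a at chr5:13396534-13396783 (plus strand) and Plxna2 at chr1:194619579-194619828 (plus strand).
Sema3c: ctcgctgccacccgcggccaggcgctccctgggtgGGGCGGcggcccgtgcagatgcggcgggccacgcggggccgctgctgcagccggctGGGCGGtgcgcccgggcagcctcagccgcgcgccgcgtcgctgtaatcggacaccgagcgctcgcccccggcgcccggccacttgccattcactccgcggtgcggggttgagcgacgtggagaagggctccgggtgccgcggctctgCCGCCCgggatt
Plxnb2 upstream start: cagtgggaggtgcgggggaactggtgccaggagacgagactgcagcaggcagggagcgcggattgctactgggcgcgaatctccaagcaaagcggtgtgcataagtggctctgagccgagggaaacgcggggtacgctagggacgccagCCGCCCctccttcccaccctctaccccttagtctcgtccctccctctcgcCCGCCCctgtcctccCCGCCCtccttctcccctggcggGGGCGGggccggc
Plxnb2 downstream start: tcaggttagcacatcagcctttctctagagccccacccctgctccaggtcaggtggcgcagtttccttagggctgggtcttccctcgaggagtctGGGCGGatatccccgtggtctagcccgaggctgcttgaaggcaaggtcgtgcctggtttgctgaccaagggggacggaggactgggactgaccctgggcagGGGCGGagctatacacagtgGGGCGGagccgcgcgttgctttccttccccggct
Sema3a: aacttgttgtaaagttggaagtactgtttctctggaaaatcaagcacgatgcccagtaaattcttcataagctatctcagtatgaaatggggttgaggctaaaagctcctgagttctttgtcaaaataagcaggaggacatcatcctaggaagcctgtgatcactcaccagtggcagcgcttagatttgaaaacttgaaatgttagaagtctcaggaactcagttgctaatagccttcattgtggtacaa
Plxna2: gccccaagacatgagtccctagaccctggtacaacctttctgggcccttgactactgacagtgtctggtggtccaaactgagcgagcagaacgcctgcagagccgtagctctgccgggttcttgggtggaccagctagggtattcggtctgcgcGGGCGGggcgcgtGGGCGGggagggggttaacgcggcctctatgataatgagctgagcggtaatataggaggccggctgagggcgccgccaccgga

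Motifs were searched on both strands: the GC box (GGGCGG), the CCAAT box (CCAAT), an ETS core (CCGGAA), the AP-1 motif (TGANTCA), the TEAD motif (GGAATG) and the TATA box (TATAAA). The only matches in these windows were GC boxes. The Sema3c window held 3, the Plxnb2 windows 4 and 3, the Plxna2 window 2 and the Sema3a window 0. A GC box is in 32.7% of the 32851 windows of that length in the table. The share of G and C was 78.4% for Sema3c, 69.2% and 63.6% for Plxnb2, 62.8% for Plxna2 and 40.8% for Sema3a, beside a median of 52.4% over all windows. Whether GC boxes go with the level of these genes was not tested. A match describes letters only, and no binding was measured here.

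The co-receptors of the class 3 ligands were measured in the same cultures. Nrp1, the neuropilin that binds Sema3a, read 1142, 664 and 2348 units and was 2.06-fold higher at passage 18 than at 13. On all 4 Nrp1 probe sets passage 18 was the highest, and on the 3 above the floor passage 14 was the lowest, the order of Sema3c, Plxna1 and Plxnb2. Nrp2, which binds Sema3f and Sema3g, read 1067, 883 and 564 units and was 1.89-fold lower at passage 18 than at 13. Passage 18 was the lowest on each of the 4 Nrp2 probe sets. Neither was called in the trend (limma adjusted p = 0.888 for both), and of the 8 co-receptor genes tested 0 were. At an unadjusted limma p under 0.05 there were 2, Nrp2 and Met, beside 3.47% of all genes tested.

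**Figure D3:**
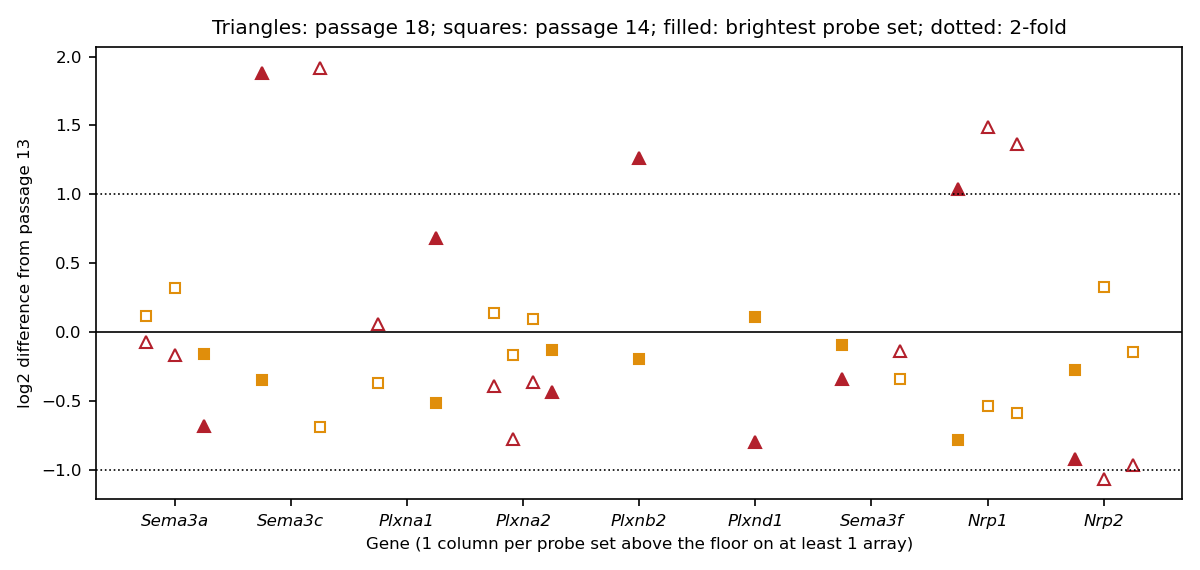
Log2 intensity difference from passage 13 of each probe set above the floor on at least 1 array, for the detected members, Plxnd1, Sema3f and both neuropilins, with passage 18 as triangles, passage 14 as squares and the brightest probe set filled. The probe sets of Sema3c and Nrp1 lie beyond the upper 2-fold line at passage 18, and those of Plxna2 and Nrp2 all lie under 0 there.

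Of the 12 co-receptor genes 7 were detected, beside 48.7% of all genes. Met, a receptor tyrosine kinase that associates with class B plexins, had a passage 18 level 1.85-fold above passage 13, and Erbb2 was 1.62-fold higher. Kdr, a VEGF receptor that shares neuropilins, was highest at passage 14 and 2.64-fold lower at 18 than at 14. The 7 detected genes had a median log2 difference of 0.54 between passages 18 and 13, beside -0.01 for all detected genes. L1cam read 57.0, 38.8 and 91.7 units at passages 13, 14 and 18, under the floor at passage 14 alone. Mst1r, Nrcam, Cd72 and Timd2 were under the floor on all arrays.

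Of the other 19 semaphorin and plexin genes 5 were detected. Sema3e, the direct ligand of Plxnd1, read 740, 627 and 672 units, a log2 level of 9.41 ± 0.12, and lies between Sema3a and Sema3c in the order of genes on chromosome 5. Its other 3 probe sets disagreed on the cultures, with passage 18 highest on 2 and lowest on 1. Sema4c, a ligand of Plxnb2, read 169, 216 and 155 units, lowest where Plxnb2 was highest. Sema6b read 109, 139 and 79.9 units and Sema6d 156, 181 and 154 units. Plxna4, which like Plxna2 is a receptor of Sema6a, read 64.9, 53.6 and 71.6 units, just above the floors. Both families counted together, 10 of 29 genes were detected, 6 of 20 semaphorins and 4 of 9 plexins, beside 48.7% of all genes.

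The remaining 14 genes outside the members were not above the floor on all arrays. Sema4b was above it at passage 14 alone. Sema5a was above it at passage 18 alone, where it read 70.4 units against 6.18 and 7.09 before, so that it was at least 1.34-fold higher than in the other two. Its probe sets with the next highest values read 19.8 and 17.3 units at passage 18, above their own values of 5.00 to 8.49 at passages 13 and 14 but under the floor. By their brightest probe sets, Sema3b, Sema4a, Sema4d, Sema4f, Sema4g, Sema5b, Sema6c, Sema7a, Plxna3, Plxnb1, Plxnb3 and Plxnc1 were under the floor on all arrays. A dimmer Sema4f probe set, open to cross-hybridisation by its name, lay above it at passage 13 with 55.2 units and read 11.6 and 13.2 later.

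**Figure D4:**
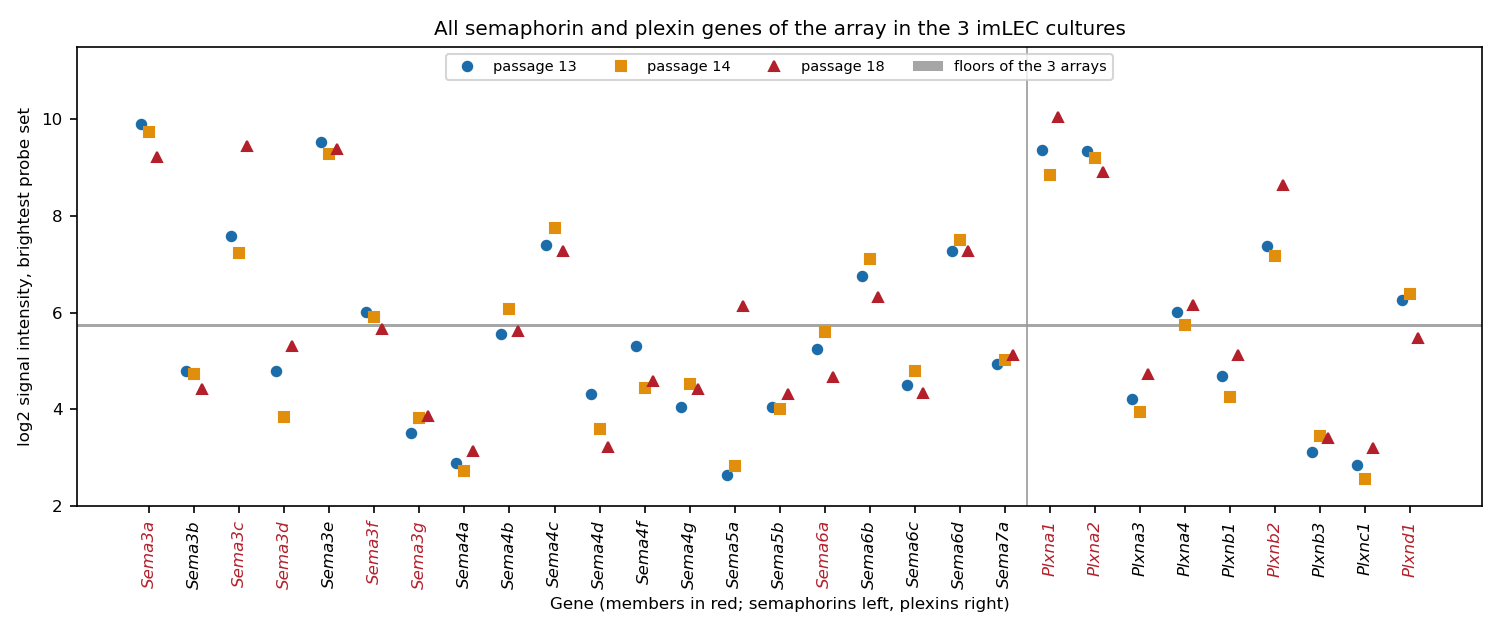
Log2 signal intensity of the brightest probe set of all 20 semaphorins (left) and 9 plexins (right) at passage 13 (circles), 14 (squares) and 18 (triangles), with the floors of the arrays as a grey band and the 10 members named in red. In all cultures 10 genes lie above the band, and Sema5a lies above it at passage 18 alone.

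Of the genes that act downstream of plexins, 24 of 29 measured were detected, beside 48.7% of all genes. The median log2 difference of the 24 between passages 18 and 13 was -0.002. Of the 25 tested in the trend by limma 0 were called in either direction. Crmp1 and Rras2 were the 2 at an unadjusted p under 0.05, beside 3.47% of all genes tested. Crmp1, a mediator of Sema3a signalling in neurons, read 7.63, 6.85 and 6.04 (log2) and was the only detected gene of this list at least 2-fold different between passages 18 and 13, 3.00-fold lower. Rnd1, a small GTPase that binds the plexin cytoplasmic part, read 9.08, 7.80 and 8.78. It was the only detected one at least 2-fold different between passages 14 and 13, lower at 14. Gipc1, an adaptor of Plxnd1 and Nrp1, read 8.80, 8.15 and 7.96. Rras, a GTPase whose activity plexins restrain, read 9.80, 9.26 and 8.87. Rap1b, another such target, read 11.89 in each culture, and Cfl1, which severs actin filaments, and the scaffold gene Ranbp9 stayed within 0.13 log2 units.

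Class 3 semaphorins are cut by proprotein convertases. Furin, the best known of these, read 7.22, 7.53 and 7.61 (log2), and Pcsk6 and Pcsk7 varied by less than a log2 difference of 0.36. Pcsk5 was under the floor at passage 14 and was at least 4.36-fold higher at passage 18. Adamts1, a protease able to cut Sema3c, read 10.50, 10.06 and 11.79 and was above its passage 13 level by 2.45-fold at passage 18, the same order of cultures as Sema3c. Of the 5 processing genes limma called 0 in the trend. Adamts1 was the 1 at an unadjusted p under 0.05, beside 3.47% of all genes tested.

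**Figure D5:**
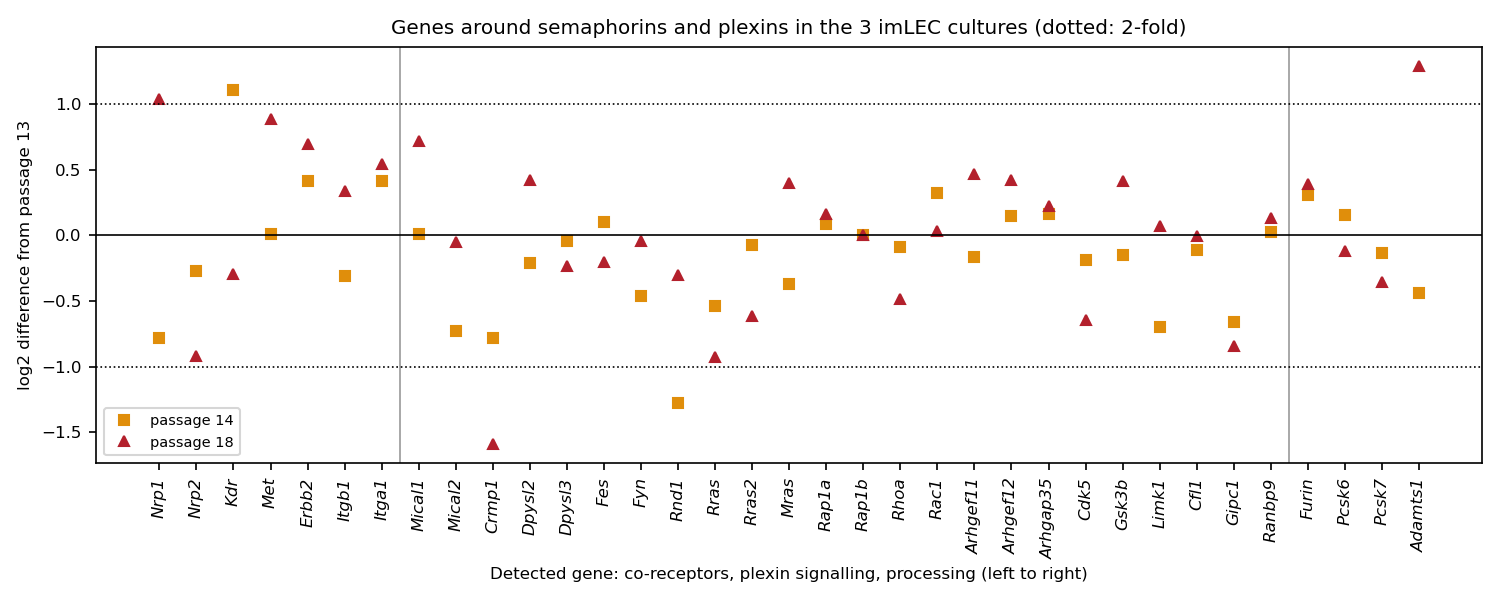
Log2 intensity difference from passage 13 of each detected co-receptor, plexin signalling and processing gene (left to right, separated by grey lines), at passage 14 (squares) and passage 18 (triangles). Nrp1 and Adamts1 lie above the upper 2-fold line at passage 18 and Crmp1 below the lower one.

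Over the 3 cultures, the detected genes with patterns closest to Sema3c were Bmpr1a, a BMP receptor, G0s2 and Serpinb1a. Their sums of squared differences of mean-centred log2 levels were 0.0156, 0.0217 and 0.0399 among 8858 genes compared. Bmpr1a read 9.17, 8.68 and 10.89. The closest to Plxnb2 were Slc1a4, an amino acid transporter, Cdc42ep3, an effector of the GTPase Cdc42, and 2810013P06Rik, with 0.00461, 0.00726 and 0.00875. With 3 arrays such likeness describes these cultures only.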

How the data were processed

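RNA of 3 imLEC cultures was amplified, labelled with biotin and measured on 1 Affymetrix-type mouse array each. The authors deposited linear signal intensities for 45101 probe sets on each array; per the submitters' processing notes MAS5 was used, with no role or version given. Medians and 95th percentiles were alike across arrays, so no further normalization was applied. The platform annotation gave 1 gene to 34958 probe sets, several to 932, which were left unnamed, and none to 9211. Symbols were updated by Entrez identifier to RefSeq (GRCm38.p6), which matched 34754. That assembly served for names and gene order, and for the promoter windows, which carry its coordinates. The build behind the array values is not given in the sources used here.

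Intensities were taken to log2 with no pseudocount, and each gene was represented by its brightest probe set. There are no detection calls, so the floor came from 39 of 42 listed genes of other tissues. Of these Apoa2 and Prm1 lay above it on all arrays. The passage trend came from limma 3.58.1 (R 4.3.3; lmFit, eBayes with trend), with 1 residual degree of freedom per gene and Benjamini-Hochberg adjustment. The fit was also run on simulated data, but with planted slopes larger than that of any member. That run therefore cannot show whether slopes of the members' size would be found. P-values test whether the slope on passage differs from a flat line. The error they use is how far these 3 cultures depart from a straight line, with the variance moderated across genes. These p-values measure no spread within a passage, and having so few arrays limits precision. Members, lists and tests were chosen with earlier results of these data known. Named are all members, the detected family genes, Nrp1, Nrp2, Gipc1, Furin, detected pathway genes at least 2-fold different between a pair of passages, and the 3 genes nearest in pattern to the 2 detected members of largest SD; others were named after their values were seen. Alternatives were other floors, probe set choices, quantile normalization, median centring, 16 added before the log, no filter, passage 18 against the others and leaving out each culture.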

Additional observations from a re-analysis of the deposited data

How the results depend on the processing

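The number of members detected was 5 and moved to 3 with the floor at the 99th percentile. For both families together it was 10 and moved to 6. The share of all genes moved from 48.7% to 35.5%. Other floors, probe set choices and leaving out a culture gave 5 to 7 members and 10 to 14 genes, beside 49.1% to 55.7% of all genes. Among these, a floor without the 2 reference genes above it, chosen after seeing the data, gave 7 members and 14 genes. No member was called in the passage trend (limma) under any of the 7 alternatives. Leaving out a culture gave slopes between -0.35 and 0.56 for Sema3c, -0.52 and 0.30 for Plxna1, -0.20 and 0.36 for Plxnb2, and -0.23 and 0.11 for Plxnd1, whose passage 18 value is under the floor. Each of these turned sign without passage 18. No other slope of the 7 members turned sign. At 1.5-fold instead of 2-fold, 4 members differed between passages 18 and 13, where 2 did, with Sema3a and Plxna1 as the additions. The share of all detected genes at 1.5-fold is not given here, so that count cannot be set beside it. With each gene at the median over its probe sets, Sema3a differed by -0.07 (log2) between passages 18 and 13 in place of -0.68, and Plxna1 no longer differed at least 2-fold between passages 18 and 14. No paired analysis was possible because there is 1 group. Levels near the floor, those of Sema3f, Plxnd1, Plxna4 and Sema5a, are limited by signal over background.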

Other observations

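Markers of nerve and Schwann cells, tissues in which semaphorins are best known, were read as well. Of the 7 measured genes 2 were detected, Tubb3 and Gap43, a growth-associated protein of axons. Gap43 read 8.13, 10.75 and 6.72 (log2) at passages 13, 14 and 18, highest at passage 14, where Sema3c, Plxna1 and Plxnb2 were lowest. Tubb3 went the other way, with 7.98, 6.06 and 8.57 (log2), the same order of cultures as Sema3c, Plxna1 and Plxnb2. Nefl, a neurofilament gene, read 8.14 and 7.56 at passages 13 and 14 and 3.15, under the floor, at passage 18. The glial genes Mbp, Sox10 and S100b were under the floor on all arrays.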
